A study of Mus musculus with 22 samples.

Results

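The insulin-like growth factor (IGF) system and the imprinted RNA H19 were followed through RNA-seq counts of embryonic mouse heart ventricles. Members were taken by gene symbol: the ligands Igf1 and Igf2, the receptors Igf1r and Igf2r, the binding protein genes Igfbp2, Igfbp3, Igfbp4, Igfbp5 and Igfbp7, and H19. All 10 were found among the 48709 genes listed in each of 2 count tables, all had counts in every library, and all passed the filter on low counts (mean above 1). No member was listed at 0. All embryos carried Nkx2.5-Cre, which recombines floxed alleles in cardiac precursors, and RNA was isolated at E13.5. Cells of the ventricle that do not descend from these precursors may keep intact alleles. The first experiment compared LIN9 wt with LIN9 KO ventricles, whose labels name no Sav1 genotype and which were taken as wild type for Sav1. The second compared 4 groups: LIN9 wt Sav1 wt, LIN9 KO Sav1 wt, LIN9 wt Sav1 KO and LIN9 KO Sav1 KO (double KO). Each group had 3 libraries, 18 in all. LIN9 KO stands for Lin9 fl/fl with exon 7 flanked by loxP sites and Sav1 KO for Sav1 fl/fl with exon 3 flanked. The group called LIN9 wt in the labels was Lin9 fl/+ according to the figure legends of the study, so that its cells could lose a copy of Lin9 as well. LIN9 is a subunit of the MuvB complex, which represses or activates genes depending on its partners and, together with B-MYB, activates mitotic genes. SAV1 is a scaffold of the Hippo kinases, which restrain the coactivator YAP. The comparisons ask how loss of LIN9, of SAV1 and of both changes transcription in the developing ventricle.

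IGF1 and IGF2 are small secreted growth factors that promote proliferation and survival by activating the tyrosine kinase receptor encoded by Igf1r. The product of Igf2r binds IGF2 without passing on this signal and carries it to lysosomes, and the binding proteins hold the ligands outside the cell and set how much of them reaches the receptor. Igf2 and H19 are neighbours on chromosome 7 with opposite imprints. Igf2 is read from the paternal and H19 from the maternal chromosome, and both use shared enhancers. In the embryonic heart, IGF2 from the epicardium and endocardium is a known mitogen for cardiomyocytes of the compact wall.

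H19 is a long noncoding RNA (chr7:142575529-142578143, mm10, minus strand) whose first exon gives rise to miR-675. The mature forms of this miRNA, from RefSeq (GRCm38.p6), are shown because they are the product encoded within the most abundant member, with the seed (bases 2 to 8) in capitals.
mmu-miR-675-5p: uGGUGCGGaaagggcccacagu
mmu-miR-675-3p: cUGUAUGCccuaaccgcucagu
The 5p form lies at chr7:142577112-142577133 and the 3p form at chr7:142577078-142577099. The row of Mir675 held 0 counts in all 18 libraries, as did that of Mir483, which lies in an intron of Igf2. The libraries were made from polyadenylated RNA and reads were counted per gene, so that these rows do not measure the mature miRNAs.

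The promoter windows of Igf1, Igfbp5 and Igfbp7 are shown because these were the members that passed the test in the first experiment. Each holds 250 bases before and 50 bases after the start of the gene in RefSeq (GRCm38.p6). They were searched on both strands for TTTGAA and TTCGAA, forms of the cell cycle homology region that MuvB binds, and for GGAATG, the core that TEAD factors, the partners of YAP, recognise. Matches are in capitals, and a match on the other strand reads TTCAAA or CATTCC.
Igf1 (chr10:87860861-87861160, plus strand): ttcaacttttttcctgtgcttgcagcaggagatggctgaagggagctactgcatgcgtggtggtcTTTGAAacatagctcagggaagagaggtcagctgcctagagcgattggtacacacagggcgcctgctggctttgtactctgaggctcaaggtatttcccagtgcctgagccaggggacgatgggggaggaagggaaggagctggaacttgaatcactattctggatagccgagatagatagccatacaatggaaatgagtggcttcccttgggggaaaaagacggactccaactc
Igfbp5 (chr1:72874816-72875115, minus strand): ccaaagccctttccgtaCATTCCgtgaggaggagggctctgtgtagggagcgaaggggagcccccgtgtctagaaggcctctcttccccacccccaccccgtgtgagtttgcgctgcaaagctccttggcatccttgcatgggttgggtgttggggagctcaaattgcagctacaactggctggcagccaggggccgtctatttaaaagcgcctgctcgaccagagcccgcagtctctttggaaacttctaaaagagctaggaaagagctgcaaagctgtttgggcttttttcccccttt
Igfbp7 (chr5:77407996-77408295, minus strand): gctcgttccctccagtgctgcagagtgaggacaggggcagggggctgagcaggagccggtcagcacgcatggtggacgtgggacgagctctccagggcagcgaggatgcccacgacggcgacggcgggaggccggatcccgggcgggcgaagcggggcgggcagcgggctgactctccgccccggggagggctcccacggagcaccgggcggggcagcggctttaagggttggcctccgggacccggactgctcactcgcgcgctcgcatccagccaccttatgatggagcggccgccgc
The window of Igf1 held TTTGAA, starting 185 bases before the start site. The window of Igfbp5 held CATTCC, starting 233 bases before it, and that of Igfbp7 held none of these letters. Windows were given for 9 of the 10 members (13 windows, of which 4 were of Igf2 and 2 of Igfbp2), the exception being H19. Of these 13 windows, 2 held TTTGAA (Igf1 and 1 of the windows of Igfbp2), 1 held TTCGAA (Igf2) and 4 held GGAATG (Igfbp5 and 3 windows of Igf2). Over all 32851 windows of the same length, TTTGAA was found in 17.9%, TTCGAA in 1.56% and GGAATG in 14.7%. A match describes the letters of the window and not a bound site.

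Total counts lay between 9485599 and 9615274 per library in the first experiment and between 2770741 and 2999877 in the second, so that counting noise is lower in the first. The spread between libraries was not always smaller there. For Igf2r, the coefficient of variation was 22.3% in LIN9 wt of the first experiment and 3.14% in LIN9 wt Sav1 wt of the second. Levels are given as CPM (counts scaled to a common library total after TMM normalization), and the 2 experiments were normalized separately. Counts of Lin9 cover the whole gene, of which only exon 7 is removed, and so check the labels weakly. Lin9 was at 25.6 ± 4.19 CPM (SD, n = 3) in LIN9 wt and 20.6 ± 1.21 CPM in LIN9 KO in the first experiment. In the second, it was at 26.8 ± 3.23 CPM in LIN9 wt and 15.5 ± 2.38 CPM in LIN9 KO ventricles with Sav1 wt, and the double KO (22.7 ± 3.85 CPM) overlapped with LIN9 wt Sav1 KO (25.4 ± 6.11 CPM). Sav1 was at 57.5 ± 3.88 CPM in LIN9 wt Sav1 wt and 40.7 ± 3.98 CPM in LIN9 wt Sav1 KO, and at 49.7 ± 2.29 against 42.3 ± 1.73 CPM in the LIN9 KO background, with every Sav1 KO library below every Sav1 wt library. Sav1 itself did not pass the edgeR test described below with loss of SAV1 (adjusted p = 0.318 with LIN9 wt and 0.464 with LIN9 KO). Lin9 passed with loss of LIN9 only with Sav1 wt in the second experiment (adjusted p = 0.00270). It missed in the first experiment (0.130), with Sav1 KO (0.387) and in the double KO against LIN9 wt Sav1 wt (0.385). Of the exonic length of Sav1, 25.4% is shared with Atl1 on the other strand. Summed markers of several cell types moved with loss of LIN9, though not every gene of a list did. In the first experiment, 7 of 14 cardiomyocyte markers tested were called lower and 0 higher (9.78% and 11.1% of all genes). Called higher and lower were 10 and 1 of 12 fibroblast, 11 and 0 of 12 epicardial and 10 and 0 of 11 macrophage markers. For smooth muscle these were 3 and 1 of 8, for endothelial 5 and 1 of 14 and for erythroid markers 11 and 0 of 13. The summed level of 16 cardiomyocyte markers was 22678 to 23515 CPM in LIN9 wt and 11007 to 15387 CPM in LIN9 KO in the first experiment, with 14 of 16 detected (Actc1 and Tnnc1 were listed at 0 in every library, so the summed level leaves out these defining genes). The sum of 12 fibroblast and mesenchymal markers was 3809 to 4192 against 6925 to 7637 CPM, that of 12 epicardial markers 407 to 444 against 821 to 920.1 CPM, and that of 11 macrophage markers 115 to 124 against 208 to 231 CPM, with every marker detected. The sum of 8 smooth muscle markers was 1616 to 1859 against 2195 to 2450 CPM, and that of 14 endothelial and endocardial markers, 1455 to 1832 against 1750.1 to 2206 CPM, overlapped. The sum of 14 erythroid markers was 8014 to 11101 against 35070 to 91072 CPM, with Alas2 at 0 and the other 13 detected. In the second experiment, the cardiomyocyte, fibroblast, epicardial, macrophage and erythroid sums again separated LIN9 KO from LIN9 wt in both Sav1 backgrounds. There the endothelial sum did so too (1597 to 1615 against 1715 to 2048 CPM with Sav1 wt, and 1398 to 1499.9 against 1572 to 1859 CPM with Sav1 KO), whereas the smooth muscle sum overlapped in both. The sum of hepatocyte markers (12 chosen, 11 of them found among the genes counted, 4 to 6 detected per group) was low but also separated there (1.33 to 3.08 against 5.26 to 9.84 CPM with Sav1 wt, and 1.69 to 3.70 against 4.98 to 8.10 CPM with Sav1 KO). It overlapped in the first experiment (2.68 to 4.78 against 3.04 to 15.5 CPM). The part of these cell types in the results below was not tested. In bulk tissue, fewer cells of a type and less RNA per cell cannot be told apart.

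With loss of LIN9, Igfbp7 was higher and Igfbp5 lower in each of the 4 comparisons with a LIN9 difference, and Igf1, Igf2 and H19 passed the test in 1 comparison each. In the first experiment, 3 of 10 members passed the test (adjusted p under 0.05, where p is from the quasi-likelihood test of edgeR and the Benjamini-Hochberg adjustment runs over all genes), where 20.9% of all 19752 genes tested did. Igf1 and Igfbp7 were higher (11.1% of all genes were) and Igfbp5 was lower (9.78%) in LIN9 KO. The same 3 members were those with an unadjusted p under 0.05 (32.1% of all genes) and those whose groups did not overlap (36.5%). In the second experiment with Sav1 wt, 4 of 10 passed (23.2% of all 17675 genes), with Igf2, Igfbp7 and H19 higher (12.8% of all genes) and Igfbp5 lower (10.5%). Here 6 of 10 had an unadjusted p under 0.05 (33.4% of all genes), and the groups of 4 did not overlap (35.1%). With Sav1 KO in both groups, loss of LIN9 changed 2 of 10 (23.4% of all genes), Igfbp7 upwards (11.8%) and Igfbp5 downwards (11.6%), with 4 of 10 at an unadjusted p under 0.05 (34.6%) and 4 of 10 without overlap (41.1%). The same pair was called in the double KO against LIN9 wt Sav1 wt (20.6% of all genes, 10.7% higher and 9.96% lower), with 3 of 10 at an unadjusted p under 0.05 (32.3%) and 4 of 10 without overlap (37.4%). With 2 to 4 of 10 called, the share of members lay near this background. The median log2 fold change of the members was 0.09 in the first experiment, 0.25 with Sav1 wt and -0.03 with Sav1 KO in the second and 0.14 in the double KO, against 0.02, 0.01, 0.03 and 0.03 over all genes. Loss of SAV1 moved no member past the threshold in either LIN9 background, where 0.0170% of all genes (3 genes, 0.0113% higher and 0.00566% lower) passed with LIN9 wt and 0.0113% (2 genes) with LIN9 KO. The median of the members was 0.05 and -0.14 in these comparisons, against 0.00 over all genes in both. In the second experiment each group of libraries, the double KO included, entered several comparisons, and those comparisons are therefore not independent of each other.

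**Figure D1:**
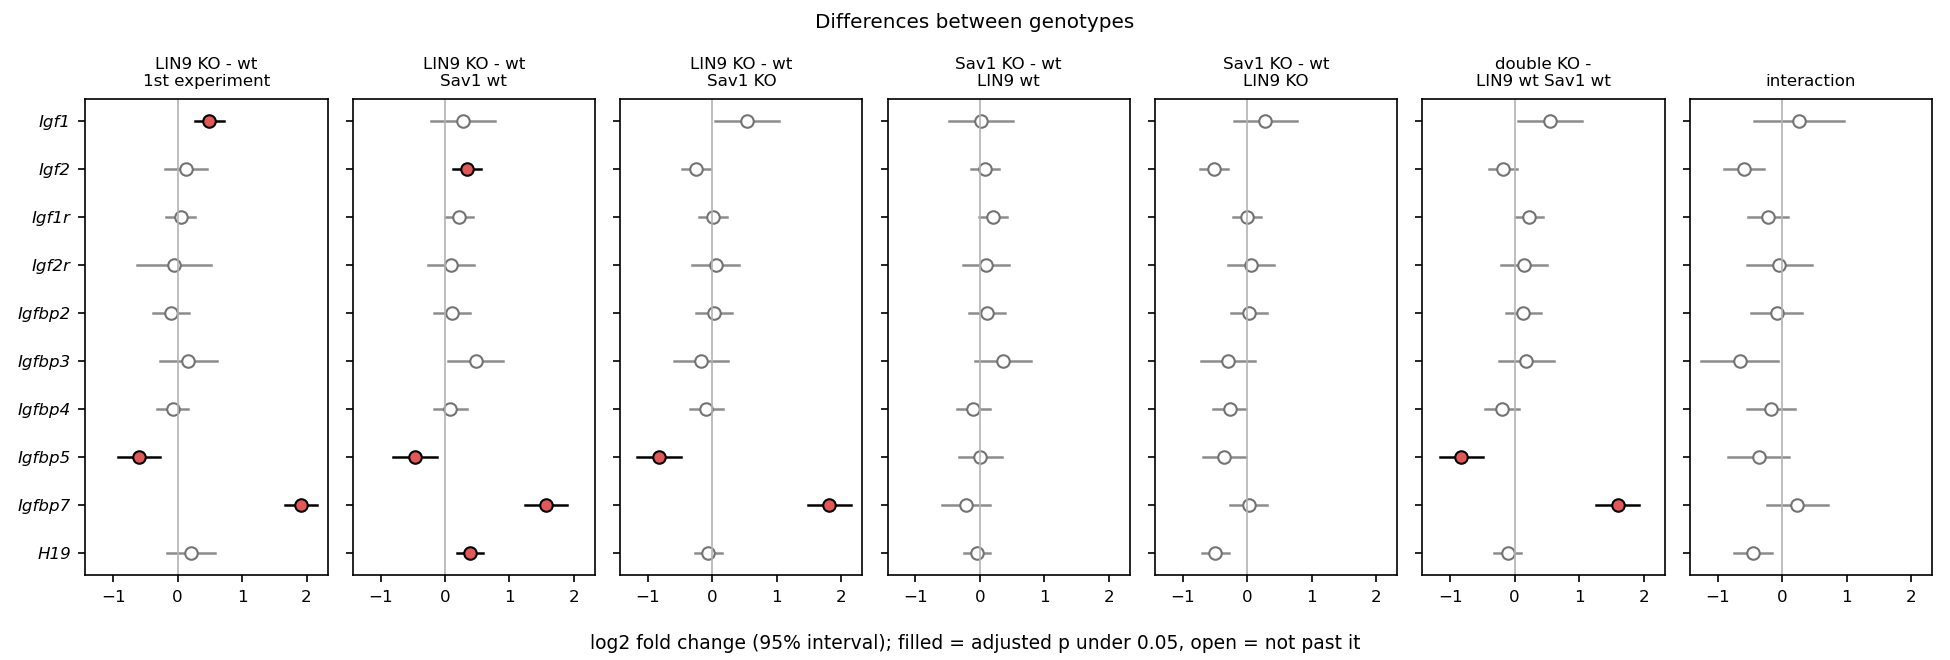
Log2 fold changes of the 10 members in 6 comparisons and the interaction (x axis), with 95% intervals as lines. Filled points passed an adjusted p of 0.05. Igfbp7 is filled to the right of 0 and Igfbp5 to the left of 0 in all 4 comparisons with a LIN9 difference, and no point is filled where only Sav1 differed.

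Per kilobase of exon, the members spanned a wide range of levels, with H19 far above the rest. In LIN9 wt Sav1 wt ventricles of the second experiment, H19 was at 3260.1 ± 383 CPM per kb (SD, n = 3), followed by Igf2 at 817 ± 57.6 and Igf2r at 212 ± 6.65. Igfbp5 followed at 133 ± 7.84 and Igfbp4 at 63.8 ± 9.47. Each of these lay above the next without overlap of the libraries. Igfbp2 (24.3 ± 2.94) and Igfbp3 (23.4 ± 2.58) overlapped with each other, as did Igf1 (13.2 ± 2.32) and Igf1r (11.99 ± 0.620) at the low end. Igfbp7 lay between these pairs at 16.9 ± 0.824 CPM per kb, its lowest library (15.9) just above the highest of Igf1 (15.8). The upper part of this order (H19, Igf2, Igf2r, Igfbp5, Igfbp4) was the same by group means in the 6 groups. The place of Igfbp7 differed between LIN9 wt and LIN9 KO, as it was at 11.7 ± 0.560 CPM per kb in LIN9 wt of the first experiment, overlapping with Igf1, and at 43.9 ± 3.18 in LIN9 KO, above Igfbp2 and Igfbp3. In reads, H19 alone took from 0.708% to 1.496% of all counts of a library, and Igf2 took 0.409% to 0.697%. Of the exonic length of Igf2, 62.8% is shared in the annotation with the readthrough gene Gm49394, for which the tables used here have no row.

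**Figure D2:**
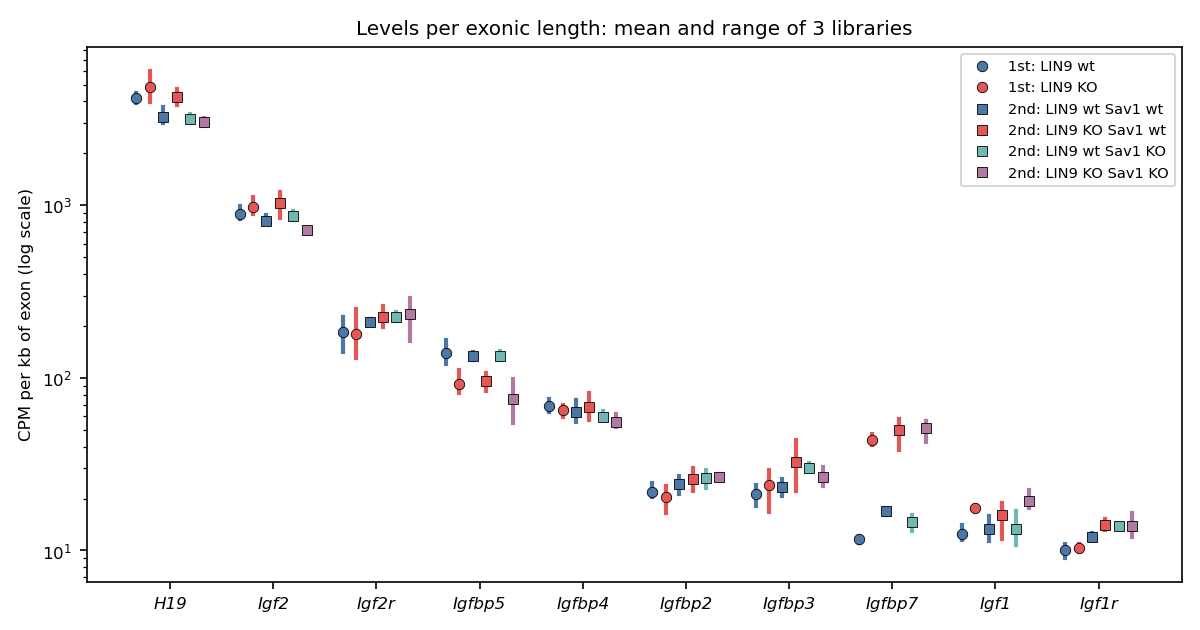
Level of each member in CPM per kb of exon on a log axis (y), by gene (x) and group (colour and symbol), where points are means and lines span the lowest to highest of 3 libraries. The order runs from H19 at 3260.1 CPM per kb in LIN9 wt Sav1 wt down to Igf1r at 11.99, and Igfbp7 separates by LIN9 genotype.

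Among the ligands, Igf1 rose after loss of LIN9 in the first experiment. Igf1 (ENSMUSG00000020053, chr10:87858265-87937042, mm10) was at 139.9, 116 and 114 CPM in the LIN9 wt and at 180.0, 173 and 168 CPM in the LIN9 KO libraries. All LIN9 KO libraries were above all LIN9 wt libraries. The log2 fold change was 0.49 (standard error, SE, 0.11, adjusted p = 0.00405), or 1.41-fold. In the second experiment the libraries were more spread: Igf1 was at 112, 157 and 125 CPM in LIN9 wt Sav1 wt and at 116, 173 and 186 CPM in LIN9 KO Sav1 wt. These groups overlapped, although each LIN9 KO library was above the LIN9 wt library of the same number. The difference did not pass the test (log2 fold change 0.27, 95% interval -0.22 to 0.77, adjusted p = 0.452). Over 12 alternatives, among them the replicate block, it ranged from 0.11 to 0.44 and passed in 0. With Sav1 KO, Igf1 was at 122, 167 and 107 CPM without and at 222, 175 and 181 CPM with the loss of LIN9. These groups did not overlap, yet the adjusted p missed the threshold (log2 fold change 0.54, SE 0.22, adjusted p = 0.113), and it passed without replicate 2 of LIN9 wt Sav1 KO (0.74, adjusted p = 0.0290). The double KO also lay above LIN9 wt Sav1 wt without overlap (log2 fold change 0.55, adjusted p = 0.113). Both differences of Igf1 passed by DESeq2 (adjusted p = 0.0245 with Sav1 KO and 0.0242 in the double KO), when only the 6 libraries compared were fitted (0.00885 and 0.00317) and without the filter on low counts (0.00122 and 0.00113). They missed the threshold in the other 8 and 9 of 12 alternatives, with log2 fold changes down to 0.40 in both, without replicate 1 of the double KO, and adjusted p up to 0.302 and 0.316.

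Igf2, the more abundant ligand, passed the test for loss of LIN9 in 1 comparison, that of the second experiment with Sav1 wt. Igf2 (ENSMUSG00000048583, chr7:142650766-142666816, mm10, minus strand) was at 4895, 5676 and 4779.6 CPM in LIN9 wt and at 5269, 5111 and 6366 CPM in LIN9 KO in the first experiment. These libraries overlapped (log2 fold change 0.13, 95% interval -0.20 to 0.45, adjusted p = 0.634). The difference was 0.020 without replicate 3 of LIN9 KO and 0.21 without replicate 2 of LIN9 wt. In the second, Igf2 was at 5054, 4504 and 4465 CPM in LIN9 wt Sav1 wt and at 6872, 6007 and 4803 CPM in LIN9 KO Sav1 wt. The lowest LIN9 KO library fell below the highest LIN9 wt library, although each was above the LIN9 wt library of the same number. The log2 fold change was 0.33 (SE 0.11, adjusted p = 0.0219). This call did not hold without replicate 2 (adjusted p = 0.132) or 3 (0.107) of LIN9 wt Sav1 wt, without replicate 1 (0.191) or 2 (0.115) of LIN9 KO Sav1 wt, or when only the 6 libraries compared were fitted (0.117). The log2 fold change was 0.19 without replicate 1 of LIN9 KO Sav1 wt and 0.27 to 0.30 in the other losses. With Sav1 KO, Igf2 was at 5319, 4709.5 and 4773 CPM without and at 4055, 4122 and 4210.1 CPM with the loss of LIN9. Here the double KO libraries were all below, with a log2 fold change of -0.26 that did not pass the test (SE 0.11, adjusted p = 0.0815). It passed in 2 of 12 alternatives, with the replicate number as a block (-0.25, adjusted p = 0.0471) and without the filter on low counts (-0.26, 0.0249). The difference of the LIN9 effect between the Sav1 backgrounds was tested as an interaction, given further on.

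The antisense gene Igf2os was described after its values had been seen. It shares 98 exonic bases with Igf2 and 1142, or 21.4% of its exonic length, with Gm49394, the readthrough gene over Igf2, and the strand setting of the counting is not given in the sources used here, so that reads of these genes cannot be told apart where they overlap. Igf2os was at 43.5, 38.0 and 37.7 CPM in LIN9 wt Sav1 wt and at 32.5, 23.9 and 29.1 CPM in LIN9 KO Sav1 wt. It was lower in each LIN9 KO library (log2 fold change -0.48, adjusted p = 0.0132), while Igf2 itself was higher in this comparison. This call was lost without replicate 1 of LIN9 wt Sav1 wt (adjusted p = 0.0523) and without replicate 2 of LIN9 KO Sav1 wt (0.0721). With Sav1 KO it fell by 0.68 on the log2 scale (adjusted p = 0.000587), and in the first experiment the difference of -0.36 did not pass (adjusted p = 0.0601), though it did without replicate 1 of LIN9 KO (-0.47, adjusted p = 0.0373) and without the filter on low counts (0.0196).

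H19 (ENSMUSG00000000031) passed the test in the same comparison as Igf2. In the first experiment, it was at 9698, 10384 and 10963 CPM in LIN9 wt and at 11270.2, 9812 and 14706 CPM in LIN9 KO. These groups overlapped, with the highest value in replicate 3 of LIN9 KO (log2 fold change 0.21, 95% interval -0.17 to 0.58, adjusted p = 0.473). Without that library the difference was 0.025 (adjusted p = 0.942), and without replicate 2 of LIN9 KO it was 0.33 (0.239). In the second, H19 was at 9106, 7527 and 7426 CPM in LIN9 wt Sav1 wt and at 11694, 10322 and 9446 CPM in LIN9 KO Sav1 wt. All LIN9 KO libraries were higher, and H19 rose by a log2 fold change of 0.39 (SE 0.10, adjusted p = 0.00520), a call that was lost without replicate 2 (adjusted p = 0.0674) or replicate 3 (0.0531) of LIN9 wt Sav1 wt. With Sav1 KO, H19 was at 8284, 7511 and 7492 CPM without and at 7877, 7085 and 7335 CPM with the loss of LIN9. These overlapped (log2 fold change -0.06, 95% interval -0.27 to 0.14, adjusted p = 0.711). Against LIN9 wt Sav1 wt, the double KO differed by -0.11 for H19 (adjusted p = 0.490) and by -0.18 for Igf2 (adjusted p = 0.255). The ratio of H19 to Igf2 counts ranged from 1.57 ± 0.0191 (SD, n = 3) in LIN9 wt Sav1 KO to 2.12 ± 0.196 in LIN9 KO of the first experiment. With Sav1 KO, the double KO libraries (1.72 to 1.94) were all above the LIN9 wt libraries (1.56 to 1.59), a separation noticed in these values and not tested.

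**Figure D3:**
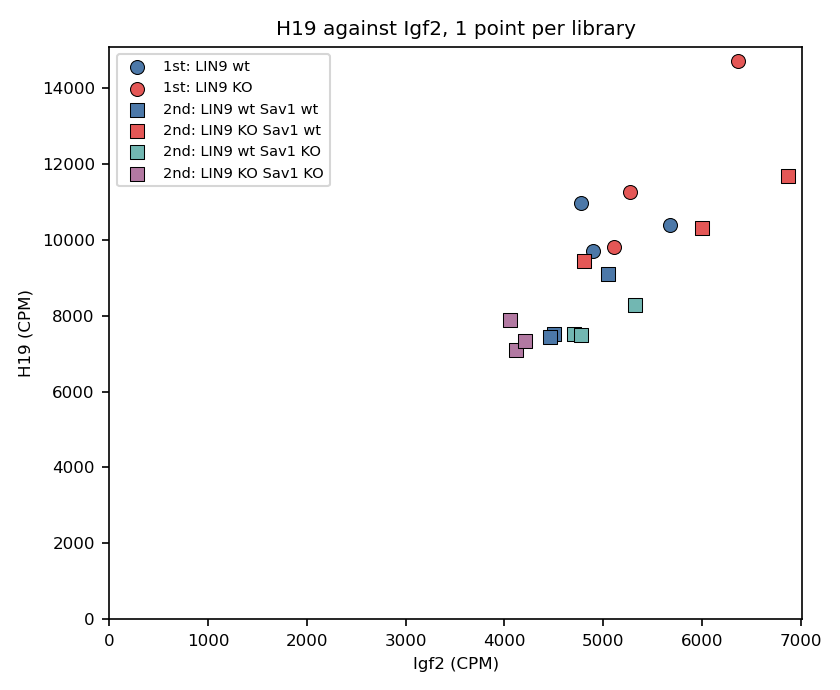
H19 (y axis, CPM) against Igf2 (x axis, CPM), with 1 point per library, circles for the first and squares for the second experiment. Double KO libraries lie at the low end of Igf2 (4055 to 4210.1 CPM), and the LIN9 KO Sav1 wt libraries reach from 4803 to 6872 CPM.

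Neither receptor passed the test in any comparison. Igf1r (ENSMUSG00000005533, chr7:67952827-68233668, mm10) was at 183, 172 and 152 CPM in LIN9 wt and at 170.5, 184 and 167 CPM in LIN9 KO in the first experiment, a log2 difference of 0.04 (95% interval -0.18 to 0.27, adjusted p = 0.823). In the second experiment, it was at 199, 213 and 192 CPM in LIN9 wt Sav1 wt, at 219, 232 and 254 CPM in LIN9 KO Sav1 wt and at 242, 228 and 229 CPM in LIN9 wt Sav1 KO. Both single knockouts were above LIN9 wt Sav1 wt without overlap, but by small amounts. The log2 fold change was 0.22 for LIN9 KO (SE 0.11, adjusted p = 0.137) and 0.21 for Sav1 KO (SE 0.11, adjusted p = 0.999). The double KO ranged from 199.7 to 276 CPM and overlapped with all other groups of this experiment. Igf2r (ENSMUSG00000023830, chr17:12682406-12769664, mm10) varied widely between libraries in some groups. It was at 1765, 2091 and 1324 CPM in LIN9 wt and at 1457, 2331 and 1207 CPM in LIN9 KO in the first experiment, replicate 2 being the highest of either group. Its coefficient of variation reached 35.4% in LIN9 KO of the first experiment and 27.6% in the double KO, against 3.14% in LIN9 wt Sav1 wt. The log2 fold change with loss of LIN9 was -0.05 in the first experiment (95% interval -0.62 to 0.52, adjusted p = 0.911) and 0.09 with Sav1 wt in the second (-0.27 to 0.45, adjusted p = 0.761). Differences of any size within these intervals remain compatible with these fits. With the replicate number as a block, the first difference was -0.08 (SE 0.11, against 0.25 without the block, adjusted p = 0.635).

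**Figure D4:**
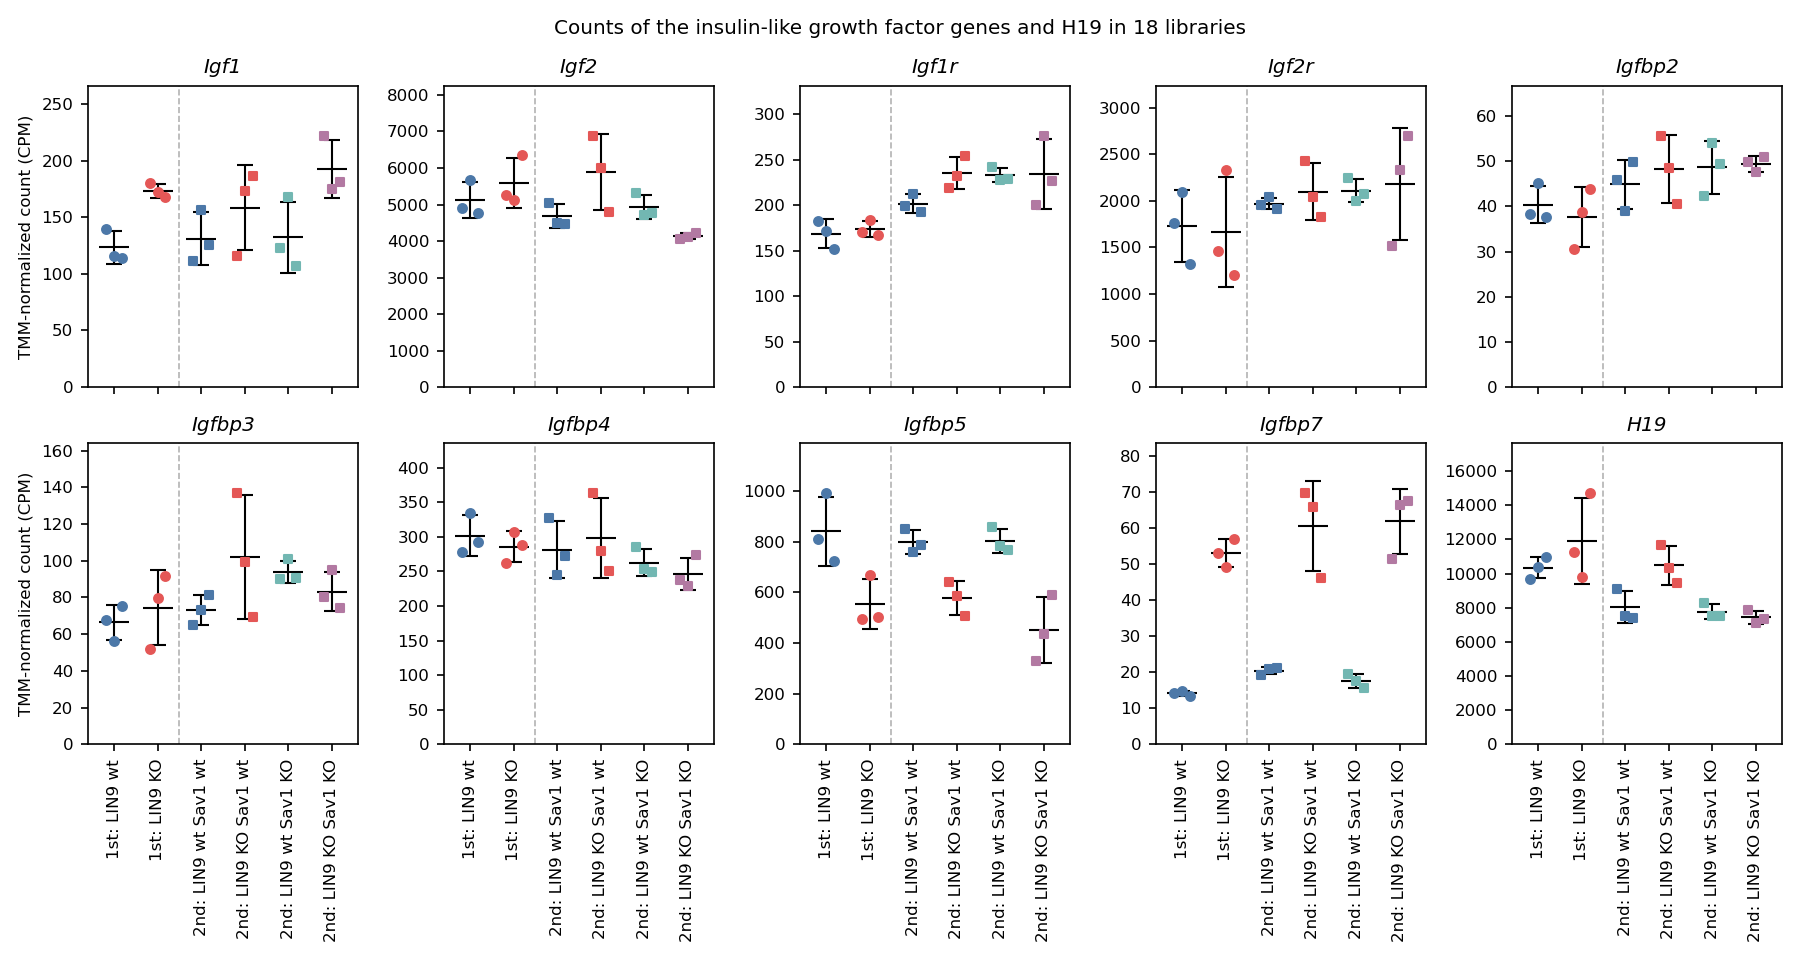
TMM-normalized counts (CPM, y axes starting at 0) of the 10 members in each of 18 libraries, by group. Points are libraries and bars are means with SD of 3 libraries, and the dashed line parts the first from the second experiment. Igfbp7 is at 46.2 to 69.7 CPM in LIN9 KO libraries and at 13.4 to 21.1 CPM in LIN9 wt libraries.

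The binding proteins held the largest differences among the members. Igfbp7 encodes a secreted protein of the vessel wall and stroma that binds IGFs with lower affinity than the others. Igfbp7 (ENSMUSG00000036256, chr5:77349240-77408041, mm10) was at 14.1, 14.8 and 13.4 CPM in LIN9 wt and at 53.0, 49.2 and 56.9 CPM in LIN9 KO in the first experiment. The groups were far apart, and the log2 fold change was 1.91 (SE 0.11, adjusted p = 1.11e-07), or 3.76-fold. In the second, it was at 19.3, 20.9 and 21.1 CPM in LIN9 wt Sav1 wt and at 69.7, 65.9 and 46.2 CPM in LIN9 KO Sav1 wt. It rose by 1.57 (SE 0.16, adjusted p = 2.43e-08). With Sav1 KO, Igfbp7 was at 19.5, 17.6 and 15.7 CPM without and at 51.5, 66.6 and 67.6 CPM with the loss of LIN9, and it rose by 1.81 (SE 0.16, adjusted p = 3.18e-09). Against LIN9 wt Sav1 wt, the double KO was higher by 1.60 (SE 0.16, adjusted p = 3.03e-08). The 9 LIN9 KO libraries (46.2 to 69.7 CPM) were all above the 9 LIN9 wt libraries (13.4 to 21.1 CPM), and the call held under every alternative tried in these 4 comparisons. Counts behind these values were 46 to 61 per library in LIN9 wt of the second experiment and 124 to 212 in its LIN9 KO libraries. Of the exonic length of Igfbp7, 7.03% is shared with Polr2b on the other strand.

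Igfbp5, by reads the most abundant of the binding protein genes, moved in the opposite direction. Its product binds both ligands and the extracellular matrix. Igfbp5 (ENSMUSG00000026185, chr1:72857932-72874884, mm10) was at 809, 991 and 722 CPM in LIN9 wt and at 493, 669.5 and 502 CPM in LIN9 KO in the first experiment. All LIN9 KO libraries were lower, and Igfbp5 fell by 0.60 on the log2 scale (SE 0.15, adjusted p = 0.0100), a call that was lost without replicate 2 of LIN9 wt (adjusted p = 0.0717) or replicate 1 of LIN9 KO (0.0605). In the second, it was at 851, 759 and 788 CPM in LIN9 wt Sav1 wt and at 641, 587 and 505 CPM in LIN9 KO Sav1 wt. The groups did not overlap, and the log2 fold change was -0.47 (SE 0.16, adjusted p = 0.0435). This call was near the threshold: the adjusted p was 0.117 with the replicate number as a block, 0.101 or 0.0866 without replicate 1 or 3 of LIN9 wt Sav1 wt, and 0.0720 or 0.100 without replicate 2 or 3 of LIN9 KO Sav1 wt. With Sav1 KO, Igfbp5 was at 859, 781 and 769 CPM without and at 331, 435 and 588 CPM with the loss of LIN9. It fell by 0.83 (SE 0.16, adjusted p = 0.00134), and by the same 0.83 from LIN9 wt Sav1 wt to the double KO (adjusted p = 0.00167). Both of the latter calls held under every alternative tried.

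Read side by side, the 9 LIN9 KO libraries were at 331 to 669.5 CPM for Igfbp5 and the 9 LIN9 wt libraries at 722 to 991 CPM. The number of Igfbp5 counts per count of Igfbp7 was 59.5 ± 6.89 (SD, n = 3) in LIN9 wt and 10.6 ± 2.64 in LIN9 KO of the first experiment. It was 39.3 ± 4.25 in LIN9 wt Sav1 wt, 45.8 ± 2.75 in LIN9 wt Sav1 KO, 9.67 ± 1.09 in LIN9 KO Sav1 wt and 7.22 ± 1.28 in the double KO. Of the summed CPM of the 5 binding protein genes, Igfbp7 took 1.12% in LIN9 wt and 5.34% in LIN9 KO of the first experiment, and Igfbp5 took 66.3% and 55.0%. The summed marker levels of fibroblast, epicardial, macrophage, erythroid and cardiomyocyte lists given above also separate LIN9 KO from LIN9 wt libraries within each experiment and Sav1 background, and their part in these 2 genes was not tested.

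**Figure D5:**
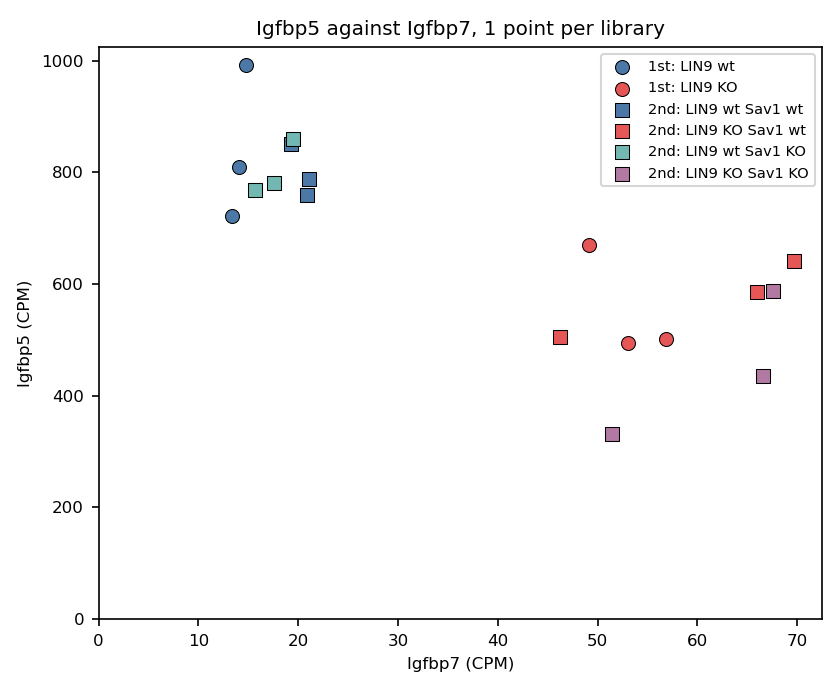
Igfbp5 (y axis, CPM) against Igfbp7 (x axis, CPM), with 1 point per library, circles for the first and squares for the second experiment, which were normalized separately. The 9 LIN9 wt libraries lie at the upper left (Igfbp7 at most 21.1 CPM) and the 9 LIN9 KO libraries at the lower right (Igfbp5 at most 669.5 CPM).

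The other binding protein genes did not pass the test in any comparison. Igfbp3 (ENSMUSG00000020427, chr11:7206086-7213923, mm10), the main carrier of IGFs in serum, was at 65.2, 73.3 and 81.3 CPM in LIN9 wt Sav1 wt and at 137, 99.4 and 69.3 CPM in LIN9 KO Sav1 wt. These groups overlapped through replicate 3 of LIN9 KO Sav1 wt (log2 fold change 0.48, SE 0.20, adjusted p = 0.104), and without that library the difference was 0.66 (adjusted p = 0.000680). It also passed without the filter on low counts (0.47, adjusted p = 0.000791), and it was smallest without replicate 1 of LIN9 KO Sav1 wt (0.19, adjusted p = 0.332). In LIN9 wt Sav1 KO it was at 90.2, 101.0 and 90.8 CPM, above LIN9 wt Sav1 wt without overlap (log2 fold change 0.36, adjusted p = 0.999). In the first experiment the difference of Igfbp3 with loss of LIN9 was 0.17 (95% interval -0.28 to 0.61, adjusted p = 0.627). Igfbp4 (ENSMUSG00000017493, chr11:99041244-99054392, mm10), whose product is the main substrate of the protease PAPP-A, ranged from 229 to 363 CPM over the 18 libraries. It differed with loss of LIN9 by -0.08 in the first experiment (95% interval -0.32 to 0.16, adjusted p = 0.700) and by 0.08 with Sav1 wt in the second (-0.18 to 0.34, adjusted p = 0.707). Igfbp2 (ENSMUSG00000039323, chr1:72824503-72852474, mm10) ranged from 30.6 to 55.5 CPM, with differences of -0.10 (-0.38 to 0.18, adjusted p = 0.667) and 0.11 (-0.17 to 0.38, adjusted p = 0.640) in the same comparisons.

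Loss of SAV1 changed no member in the LIN9 wt background by the test, which Sav1 itself did not pass either (adjusted p = 0.318 in edgeR). The 10 log2 fold changes lay between -0.21 and 0.36, and 0 of 10 had an unadjusted p under 0.05 in edgeR (3.92% of all genes did). DESeq2 also called 0 of 10, where it called 2 (0.0113%) of the 17654 genes given an adjusted p. Groups did not overlap for 2 of 10 members, Igf1r and Igfbp3, where 12.1% of all genes did not overlap. For Igf2 the difference was 0.08 (95% interval -0.14 to 0.30) and for H19 it was -0.05 (-0.25 to 0.16, adjusted p = 0.999 each).

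In the LIN9 KO background, loss of SAV1 left H19 and Igf2 lower in each library, close to the threshold. H19 was at 11694, 10322 and 9446 CPM with Sav1 wt and at 7877, 7085 and 7335 CPM with Sav1 KO (log2 fold change -0.50, SE 0.10, adjusted p = 0.0560). Igf2 was at 6872, 6007 and 4803 CPM with Sav1 wt and at 4055, 4122 and 4210.1 CPM with Sav1 KO (log2 fold change -0.51, SE 0.11, adjusted p = 0.0618). These were the 2 of 10 members whose groups did not overlap (15.1% of all genes), and 4 of 10 had an unadjusted p under 0.05 (11.8%). DESeq2 called 2 of 10, H19 and Igf2 (adjusted p = 0.00180 and 0.00219). It called 77 genes in all, 8.86% of the 869 that it gave an adjusted p, out of 17675 fitted. A member without an adjusted p counted as not called, so the 2 shares have different bases. Replicate 3 of LIN9 KO Sav1 wt was the lowest of its group for both genes. Without it, 3 members passed: Igf2 at -0.65 (adjusted p = 0.00164), H19 at -0.57 (0.00837) and Igfbp3 at -0.51 (0.0421, against -0.30 and 0.588 with all libraries, where its groups overlapped), and the number of all genes called went from 2 to 378 (2.14%). Without replicate 1 of the same group the differences were smaller, at -0.38 for Igf2 (adjusted p = 0.227), -0.41 for H19 (0.206) and -0.021 for Igfbp3 (0.991). The adjusted p of both Igf2 and H19 was 0.395 when only the 6 libraries compared were fitted. Igfbp5 and Igfbp7 differed by -0.36 (adjusted p = 0.394) and 0.02 (95% interval -0.26 to 0.31, adjusted p = 0.966) between these groups. The difference of Igfbp5 ranged from -0.59 to -0.19 over 12 alternatives. It passed in 1 of them, without the filter on low counts (-0.35, adjusted p = 0.0410), where 1.30% of all genes passed.

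Whether the LIN9 effect differed between the Sav1 backgrounds was tested as an interaction, for which 0% of the 17675 genes passed (1156 or 6.54% had an unadjusted p under 0.05 in edgeR, among them 3 members, and DESeq2 called 0 genes). Of the members, Igf2 had the smallest p: its LIN9 effect was lower by 0.59 on the log2 scale with Sav1 KO than with Sav1 wt (SE 0.15, unadjusted p = 0.000508, adjusted p = 0.536). The same difference was -0.45 for H19 (adjusted p = 0.678) and -0.66 for Igfbp3 (adjusted p = 0.740). For Igfbp5 it was -0.36 (95% interval -0.84 to 0.11, adjusted p = 0.828) and for Igfbp7 0.24 (-0.24 to 0.71, adjusted p = 0.905). Without replicate 3 of LIN9 KO Sav1 wt, Igf2 (-0.71, adjusted p = 0.0127) and Igfbp3 (-0.86, adjusted p = 0.0232) passed, among 64 (0.363%) of all genes. Without the filter on low counts Igf2 passed (-0.58, adjusted p = 0.0176), among 17 (0.0714%). Over 17 alternatives, the difference ranged from -0.71 to -0.45 for Igf2 and from -0.86 to -0.37 for Igfbp3.

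Other genes of the pathway changed in both directions. Of a list of 56 further IGF pathway genes, 50 were tested in the first experiment, and 8 were higher and 8 lower in LIN9 KO (11.1% and 9.78% of all genes). In the second experiment with Sav1 wt, 13 were higher and 8 lower of 49 (12.8% and 10.5% of all genes). With Sav1 KO, 7 were higher and 10 lower (11.8% and 11.6%), and in the double KO 5 were higher and 8 lower (10.7% and 9.96%). The median log2 fold change of the list was -0.02 in the first experiment, 0.09 with Sav1 wt and -0.02 with Sav1 KO in the second, against 0.02, 0.01 and 0.03 over all genes. In both experiments, 12 genes of the list were called in the same direction at 5 CPM or more and without overlap of the groups, 7 higher and 5 lower of the 49 tested in both, where 12.9% of all 17656 genes tested in both met this rule (6.63% higher and 6.23% lower). Outside the cell, Pappa, which encodes the protease PAPP-A that frees IGFs from IGFBP4, rose from 8.25 ± 0.741 to 24.8 ± 1.82 CPM (SD, n = 3) in the first experiment (log2 fold change 1.58, adjusted p = 3.54e-06) and by 1.66 in the second. Stc2, whose product inhibits PAPP-A, rose as well, from 15.1 ± 0.646 to 42.4 ± 14.4 CPM (log2 fold change 1.49, adjusted p = 0.000839) and by 1.33 in the second. Igfbpl1, a secreted relative of the binding proteins, fell by 1.40 (adjusted p = 0.000280) and by 1.31. Ctsd, the lysosomal protease cathepsin D, rose by 0.53 and 0.80.

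Inside the cell, the transcription factor gene Foxo3, which AKT restrains, rose by 0.51 (adjusted p = 0.00663) in the first and by 1.06 in the second experiment. Akt1, the kinase itself, was at 476 ± 34.2 CPM in LIN9 wt and 339.6 ± 6.82 CPM in LIN9 KO (SD, n = 3) and fell by 0.49 (adjusted p = 0.00480) and by 0.45. Grb14, an adaptor that inhibits the insulin receptor, fell by 0.84 and 0.43, Pik3r1, a regulatory subunit of PI3 kinase, by 0.53 and 0.41, and Rheb, the activator of mTORC1, by 0.35 and 0.41. Pik3cd, a catalytic subunit of PI3 kinase, rose by 0.55 and 0.78. The calls of Pappa, Stc2, Foxo3, Ctsd, Igfbpl1 and Akt1 held under each alternative tried, whereas others did not. The call of Rheb in the first experiment was lost without replicate 1 (adjusted p = 0.0637) or 3 (0.0906) of LIN9 wt or replicate 1 of LIN9 KO (0.0704), and that of Pik3cd without replicate 2 or 3 of LIN9 wt or replicate 1 or 2 of LIN9 KO (0.0618 to 0.115). In the second, the call of Grb14 was lost without replicate 1 of LIN9 KO Sav1 wt (0.0631), that of Pik3r1 without replicate 1 (0.123) or 3 (0.0642) of LIN9 wt Sav1 wt, and that of Pik3cd without replicate 2 of LIN9 wt Sav1 wt (0.0889) or of LIN9 KO Sav1 wt (0.111). By DESeq2, Pik3cd missed the threshold in both experiments (0.0673 and 0.0850) and Pik3r1 in the second (0.0629), and Pik3cd also did with the 6 libraries alone (0.0501).

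Imprinted genes other than Igf2, H19 and Igf2r also moved in both directions. Of a list of 54, 41 were tested in the first experiment, with 13 higher and 5 lower in LIN9 KO (11.1% and 9.78% of all genes), and 40 in the second with Sav1 wt, with 10 higher and 5 lower (12.8% and 10.5%). With Sav1 KO, 11 were higher and 5 lower of 40 (11.8% and 11.6% of all genes), as many as in the double KO (10.7% and 9.96%). Without replicate 1 or without replicate 3 of LIN9 wt, the count in the first experiment fell from 18 to 10 genes, and the share of all genes called from 20.9% to 14.4% and 13.8%. The median of the list was 0.29 in the first experiment, 0.05 with Sav1 wt and 0.27 with Sav1 KO in the second, against 0.02, 0.01 and 0.03 over all genes. By the same rule as above, 4 were higher and 3 lower in both experiments, of 39 tested in both (6.63% and 6.23% of all genes). Rian and Meg3, maternally expressed noncoding RNAs of the Dlk1-Dio3 region, rose by 0.75 and 0.72 in the first and by 0.86 and 0.55 in the second experiment, and Peg3, a paternally expressed zinc finger gene, rose by 0.81 and 0.69. H13 was higher by 0.36 and 0.28. Ddc, whose imprint is known from the developing heart, fell by 1.77 and 1.70, from 118 ± 18.1 to 34.5 ± 4.75 CPM (SD, n = 3) in the first experiment. Kcnq1, a potassium channel gene, fell by 1.16 and 0.97, and Cdkn1c, an inhibitor of cell cycle kinases that lies in the same chromosome 7 cluster, fell by 0.58 and 0.49. The call of H13 was lost without replicate 1 (adjusted p = 0.0703) or 3 (0.0771) of LIN9 wt in the first experiment and without any of the 6 libraries compared in the second (0.0706 to 0.142). That of Meg3 in the second was lost without replicate 2 (0.0807) or 3 (0.0786) of LIN9 KO Sav1 wt. H13 in the second experiment also missed the threshold by DESeq2 (0.0751), without the filter (0.0734) and with the 6 libraries alone (0.127), and Meg3 did with the 6 libraries alone (0.0537).

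Over the 18 libraries, the genes with a profile closest to that of Igfbp7 were Gdf6 and Scara3. The root mean square difference of log2 CPM, centred on each experiment, was 0.149 for Gdf6, a BMP family ligand, and 0.189 for Scara3, a scavenger receptor family member, where Igfbp7 itself deviated by 0.880 from its own mean. For Igfbp5, the closest of the 12108 genes compared were Extl3, a heparan sulfate glycosyltransferase (0.126), and Tgm2, a transglutaminase (0.137), where Igfbp5 deviated by 0.393. The call of Tgm2 in the first experiment (log2 fold change -0.50, adjusted p = 0.0205) was lost without replicate 1 or 2 of LIN9 wt or replicate 1 or 3 of LIN9 KO (0.0563 to 0.112). The points share the 18 libraries and their LIN9 genotypes, so this likeness describes these libraries.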

How the data were processed

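RNA-seq counts of 18 libraries of ventricles at E13.5 were analysed. The authors mapped reads with TopHat2 (2.1.0) and Bowtie2 to mm10, brought samples to a common depth, that of the sample with the fewest mappable reads, by a procedure not given in the sources used here, and counted reads per Ensembl gene. The deposited values are whole-number counts. The overlap mode and strand setting of that counting are not given in the sources used here. The authors' tables of log2 fold changes and p-values, the ChIP-seq samples and 0 columns of per-sample values were not used, and 4 repeated identifiers per table were kept once. A legend of the study describes its LIN9 KO and wt ventricle data as a pair of biological replicates, each in triplicate, and no source says that the libraries of a group came from separate embryos, so p-values measure the spread between these libraries, which may be technical.

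Genes with a mean count above 1 (19752 and 17675) were normalized by TMM and compared with edgeR's quasi-likelihood test (edgeR 4.0.16, R 4.3.3), with robust estimates and Benjamini-Hochberg adjustment over all genes (threshold 0.05). The 12 libraries of the second experiment shared 1 fit. Intervals are 95% intervals of that fit, and log2 CPM used a prior count of 2. The script was tested on simulated data. Alternatives were RLE factors, no filter, filterByExpr, DESeq2 (1.42.0), a replicate block, each library left out, and the 6 libraries alone. Positions are from GENCODE M21 (mm10).

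The members and lists were chosen with earlier results of these data known. The text names all members, Lin9 and Sav1, and up to 5 list genes per direction called alike with loss of LIN9 (Sav1 wt) in both experiments at 5 CPM or more without overlap, ordered by mean size, and the 2 genes closest in profile to each member called in both. Same-numbered libraries deviated together, with every correlation above 0.1, for LIN9 wt and KO with Sav1 wt (0.341 to 0.720) and for Sav1 wt and KO with LIN9 wt (0.171 to 0.427) in the second experiment, but not for pairs with the double KO (-0.120 to 0.184). In the first experiment the range was 0.0586 to 0.288. No label gives a shared litter or day, so any pairing rests on these correlations.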

Additional observations from a re-analysis of the deposited data

Results flagged for a closer look

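In the second experiment, the direction of the LIN9 effect on Igf2 differed by Sav1 background: each LIN9 KO Sav1 wt library was above the mean of LIN9 wt Sav1 wt, and each double KO library was below the mean of LIN9 wt Sav1 KO. The first experiment did not show the former, as its LIN9 KO libraries (5111 to 6366 CPM) lay on both sides of the LIN9 wt mean (5117 CPM). Its log2 fold change was 0.13 (adjusted p = 0.634 in edgeR). The tested difference of the LIN9 effects was -0.59 on the log2 scale (95% interval -0.90 to -0.28, unadjusted p = 0.000508, adjusted p = 0.536 in edgeR). The adjusted p ranged from 0.0127 to 1.00 over 17 alternatives. For Igfbp3, every LIN9 wt Sav1 KO library was above the mean of LIN9 wt Sav1 wt and every double KO library below the mean of LIN9 KO Sav1 wt. Neither Sav1 difference passed (0.36, adjusted p = 0.999 with LIN9 wt, and -0.30, adjusted p = 0.588 with LIN9 KO, in edgeR). With LIN9 KO the groups overlapped, and without replicate 1 of LIN9 KO Sav1 wt the difference was -0.021. The interaction of Igfbp3 was -0.66 (95% interval -1.26 to -0.06, adjusted p = 0.740, range 0.0232 to 1.00). Groups of 3 libraries are too small for a check of single libraries against the others.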

How the results depend on the processing

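Of 543 log2 fold changes of members under alternatives, 489 kept their direction and side of the threshold, 14 lost the call, 24 gained one and 16 changed sign. These values cover all 10 members for LIN9 in the first experiment and with Sav1 wt in the second. In the other comparisons they cover only some of the members. Igfbp7 kept its call in every alternative of its 4 comparisons with a LIN9 difference, and Igf1 in all 11 of the first experiment. Without the filter on low counts, 4 members passed for LIN9 with Sav1 KO (2 in the report), where 18.6% of all genes did. For Sav1 with LIN9 KO, 3 passed (Igf2, Igfbp5 and H19, with 1.30% of all genes), and 1 did for the interaction (0.0714%), the last pair with 0 each in the report. For Sav1 with LIN9 KO, DESeq2 and the replicate block each gave 2 (H19 and Igf2). They called similar numbers of genes, 77 and 84, but DESeq2 gave an adjusted p to only 869 genes (8.86%) and the block to 17675 (0.475%). The block changed 2 further calls of members, ending that of Igfbp5 for LIN9 with Sav1 wt (-0.47, adjusted p = 0.117) and adding Igf2 for LIN9 with Sav1 KO (-0.25, adjusted p = 0.0471). With the block, Igf2os passed in the first experiment (-0.36, adjusted p = 0.0493).

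With each library left out in turn, 1 to 4 members passed for LIN9 with Sav1 wt (1 without replicate 3 of LIN9 wt Sav1 wt, 2 without its replicate 2 or replicate 2 of LIN9 KO Sav1 wt), where 17.2% to 23.3% of all genes did, 0 to 3 for Sav1 with LIN9 KO (0% to 2.14%) and 0 to 2 for the interaction (0% to 0.363%), the highest counts of the last pair being without replicate 3 of LIN9 KO Sav1 wt. Changes of sign were all in uncalled values. Log2 fold changes then ranged in the first experiment from -0.37 to 0.13 for Igf2r, -0.023 to 0.10 for Igf1r, -0.22 to 0.034 for Igfbp2, -0.0088 to 0.37 for Igfbp3 and -0.13 to 0.0025 for Igfbp4. For LIN9 with Sav1 wt they ranged from -0.043 to 0.15 for Igf2r, -0.023 to 0.19 for Igfbp2 and -0.10 to 0.18 for Igfbp4. For Sav1, they ranged from -0.11 to 0.057 for H19 with LIN9 wt and from -0.14 to 0.14 for Igfbp7 with LIN9 KO. The cause was not tested.

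Over all genes, 4131 were called in the first experiment and 2722 without replicate 3 of LIN9 wt. For Sav1 with LIN9 wt the count was 3, against 22 without the filter, 31 with the 6 libraries alone and 0 to 2 with a library left out. For Sav1 with LIN9 KO it was 2, against 309 without the filter, 77 by DESeq2, 84 with the block, 378 without replicate 3 of LIN9 KO Sav1 wt and 0 with filterByExpr or the 6 libraries alone. For the interaction it was 0, against 17 without the filter and 64 without that library. Of 552 values of other named genes, 513 kept direction and call, 36 lost it and 3 gained it. In the second experiment, Igfbp7 rests on 46 to 212 counts per library.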
